A study of Mus musculus with 8 samples.

Results

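Absorption of salt and water by the colon was followed through 10 genes of colonocyte ion and water transport, Slc26a3, Slc9a3, Aqp4, Aqp8, Car1, Car4, Scnn1b, Scnn1g, Atp12a and Cftr. They were taken by their mouse NCBI gene identifiers from a table of 45777 genes, all 10 were found, and all are protein coding. The study measured RNA of colon and liver tissue by RNA sequencing in mice, with 1 library per group and tissue and 8 libraries in all. The 4 colon libraries used here came from a control group, a group with non-alcoholic steatohepatitis (NASH), a group given a low dose of extracellular vesicles (EVs) of bovine colostrum and a group given a high dose. That both EV groups carried the NASH model was read from the design text, and it sets the question of how the vesicles act on the diseased gut. Strain, sex, age, diet, dose amounts, time of treatment, colon segment and pooling of animals are given by none of the sources used here.

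In the colon, surface cells take up sodium and chloride through paired exchangers, and water follows. Slc9a3 (NHE3) trades sodium for protons and Slc26a3 (DRA) trades chloride for bicarbonate, with carbonic anhydrases supplying both protons and bicarbonate. In the distal colon the epithelial sodium channel ENaC adds a current of sodium that aldosterone controls, and the colonic proton-potassium pump Atp12a recovers potassium. Cftr, a chloride channel of crypt cells, works in the other direction and drives fluid secretion.

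Levels are in FPKM (fragments counted per kilobase of a transcript and scaled to the mapped total) as the authors deposited them, and the sequencing depth is unknown. Ratios are differences of log2(FPKM + 1) between 2 libraries, and a gene was called when they differed at least 2-fold. Because each group has a single library, no test could be run, no value carries an error, and no difference below can be set against the spread between animals. Between 13863 and 14480 genes reached 1 FPKM in the colon libraries, and 15245 reached it in at least 1 of them. Each of the 10 members was at 1 FPKM or more in every colon library.

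The 10 genes did not move as a block. Aqp4 was lower and Scnn1g higher in the NASH colon than in control, Aqp8 was higher in the low-dose than in the NASH library, and Scnn1g was lower in the high-dose than in the NASH library. These were the 4 differences of 2-fold or more among the 40 ratios of the 4 comparisons. Slc26a3 and Slc9a3 stood highest in the high-dose library without reaching 2-fold. Over the 4 libraries 4 members, Aqp4, Aqp8, Scnn1g and Atp12a, spanned 2-fold or more, against 7.92% of the 15245 genes. The median span was 0.91 log2 units for the members and 0.39 for all genes. These spans are not like for like. Apart from Scnn1b and Scnn1g, each member was above at least 82.5% of these genes in every colon library, and the added 1 shrinks spans at low FPKM. The members were also chosen with earlier results of these data known. In bulk tissue, fewer cells of a type and less RNA per cell cannot be told apart.

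**Figure D1:**
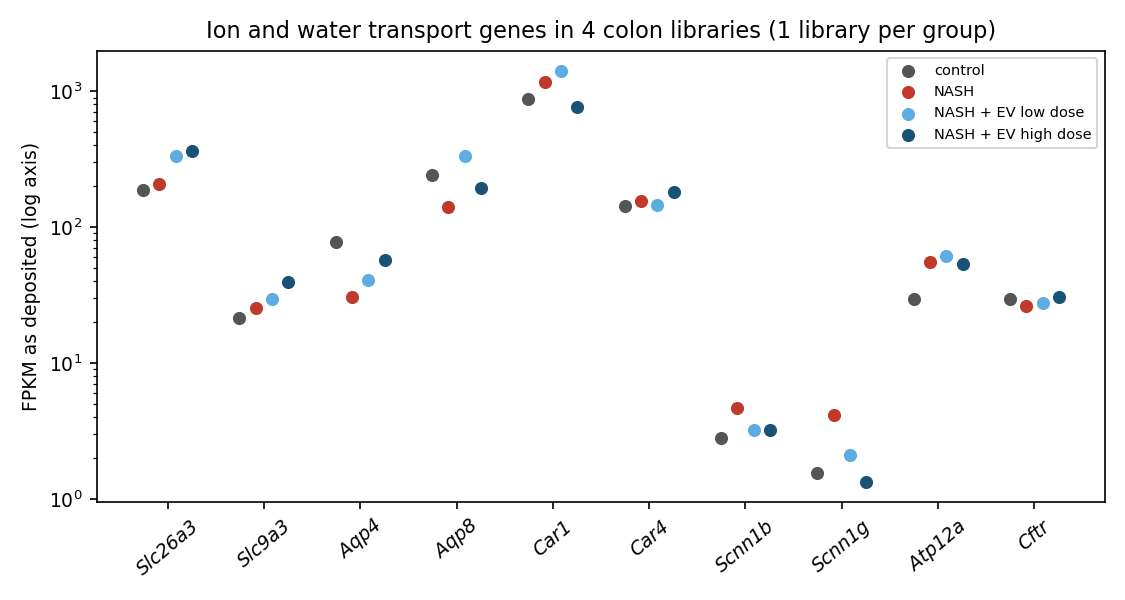
FPKM (log axis) of the 10 genes in the 4 colon libraries, 1 point per library. Car1 lies between 766 and 1404 and is highest in every library, and Scnn1b and Scnn1g lie below 5 FPKM throughout.

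The levels, which FPKM allows to be compared per length, differed widely. Car1, a cytosolic carbonic anhydrase, was the most abundant member in all 4 libraries. It made up 54.5% of the summed FPKM of the 10 genes in control, 64.3% in NASH, 59.0% in the low-dose and 45.3% in the high-dose library. Aqp8, Slc26a3 and Car4 followed between 139.8 and 361 FPKM. Aqp4, Atp12a, Cftr and Slc9a3 lay between 21.5 and 78.0 FPKM. The ENaC subunits Scnn1g and Scnn1b were lowest, between 1.34 and 4.66 FPKM.

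The libraries also differed in tissue other than absorptive epithelium. The 6 seminal vesicle and prostate genes summed to 15503 FPKM in the NASH library and were listed at 0 in the other 3 libraries. The 8 pancreatic acinar genes (1 at 0 in NASH and 4 at 0 in the low-dose library) summed to 2768 FPKM in the high-dose library and to between 83.5 and 200.4 in the others. Cela1 held most of the sum in the others, at 146.8 FPKM in control, 82.1 in NASH and 104.0 in the low-dose library. The remaining acinar genes were at 0.363 FPKM or less in NASH and the low-dose library and between 2.88 and 13.1 in control. Adipocyte markers (5 genes, none at 0) summed to 38.1 FPKM in control, 141 in NASH, 69.5 in the low-dose and 21.9 in the high-dose library. Hox genes of more anterior positions, which mark place along the gut (9 genes, none at 0), summed to 16.4, 48.1, 21.6 and 25.8 FPKM in the same order, with Hoxb6 at 2.79, 14.5, 5.27 and 4.24. Of these, 5 (Hoxb3 to Hoxb7) were higher by 2-fold in NASH than in control, where 2.43% of all genes were. Hoxa3, Hoxa4, Hoxa5 and Hoxb2 were within 2-fold. Posterior Hox genes (8 genes, with Hoxc10 listed at 0 in control and in the high-dose library) summed to 160.4, 140.2, 162 and 158 FPKM, and Hoxb13, a gene of the distal colon, was at 134, 114, 139.5 and 131 FPKM. Hoxb13 thus held most of the posterior sum. Hoxd10, Hoxd11 and Hoxd13 were higher in NASH than in control, at 0.88, 0.60 and 0.09, and Hoxa10, Hoxa13 and Hoxb13 lower, all below 2-fold. Epithelial markers (10 genes, none at 0) summed to 5755, 5644, 7414 and 6422 FPKM, and goblet cell markers (8 genes, none at 0) to 15998, 6935, 14528 and 13316. Of the goblet cell markers 4 were lower by 2-fold in NASH than in control, where 1.97% of all genes were. Muc2 (1519 FPKM in control and 1760 in NASH) and Spdef (42.7 and 57.2) went the other way. The colon label was thus matched by its epithelial and Hox markers. The NASH library stood apart in seminal vesicle and prostate genes and in the sums of adipocyte, anterior Hox and goblet cell genes. The high-dose library stood apart in pancreatic acinar genes. The part of these differences in the results below was not tested.

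**Figure D2:**
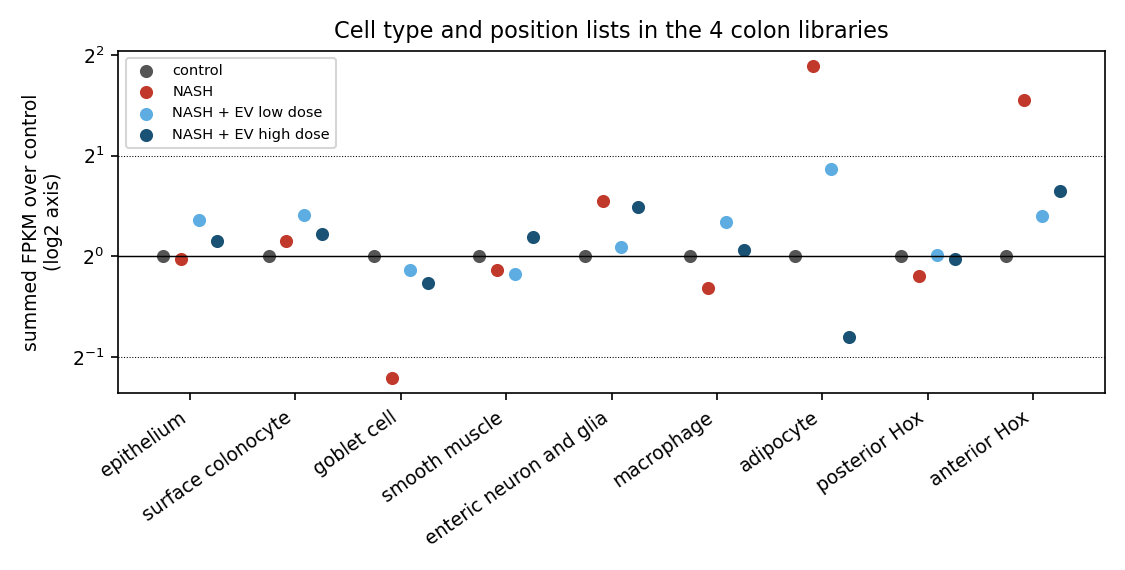
Summed FPKM of 9 marker lists over that of the control colon library (log2 axis), 1 point per library, with dotted lines at 2-fold. The seminal vesicle and prostate genes and the pancreatic acinar genes are not drawn. The NASH library is 3.70 times control for adipocyte markers, 2.93 times for anterior Hox genes and 0.434 times for goblet cell markers, while epithelial markers are between 0.981 and 1.29 times control in the 3 other libraries.

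Slc26a3 and Slc9a3, the chloride-bicarbonate and sodium-proton exchangers of neutral salt uptake, followed the same order over the 4 libraries. Slc26a3 (gene ID 13487, GRCm38 chromosome 12, 31433142 to 31473922) was at 188 FPKM in control, 207 in NASH, 333 in the low-dose and 361 in the high-dose library. Slc9a3 (gene ID 105243, chromosome 13, 74086255 to 74169442) was at 21.5, 25.5, 29.8 and 39.6 FPKM. Control was lowest and the high dose highest for both genes. After Car4 and Cftr they were the pair of members with the most similar profiles, at a root mean square distance of 0.17 log2 units between profiles centred on their means.

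NASH and control were close for both exchangers, with log2 ratios of 0.14 for Slc26a3 and 0.24 for Slc9a3, while all genes had a median of 0.06. Against NASH, Slc26a3 stood at 0.68 in the low-dose and 0.80 in the high-dose library, and Slc9a3 at 0.22 and 0.62. Of all genes, 1.52% were as high as or higher than Slc26a3 in the high-dose comparison, and 2.39% than Slc9a3. Relative to the epithelial markers, Slc26a3 stayed above NASH at 0.30 and 0.62, whereas Slc9a3 turned to -0.16 in the low-dose library and stayed at 0.44 in the high-dose library. Both genes were above control as well as above NASH in the EV libraries, at 1.92 times control for Slc26a3 and 1.84 times for Slc9a3 in the high-dose library. The ratio of the FPKM of Slc26a3 to that of Slc9a3 was 8.72, 8.12, 11.2 and 9.11 in control, NASH, low dose and high dose. Slc9a3 overlaps the long noncoding RNA Gm41003, listed between 9.0 and 14.2 FPKM in the colon libraries, and how reads divide between them is not known.

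The promoters of the pair are shown because these genes kept the same order of libraries. The RefSeq promoter table (GRCm38.p6) held 7 of the 10 members, and the bases before the listed start are printed, with matches on either strand in capitals, TATAAA being a core promoter motif and GGGCGG a motif that Sp1 is known to bind. The Slc26a3 window is chr12:31437969-31438218 and the Slc9a3 window chr13:74121163-74121412, both on the plus strand and both inside the annotated span of their gene.
Slc26a3: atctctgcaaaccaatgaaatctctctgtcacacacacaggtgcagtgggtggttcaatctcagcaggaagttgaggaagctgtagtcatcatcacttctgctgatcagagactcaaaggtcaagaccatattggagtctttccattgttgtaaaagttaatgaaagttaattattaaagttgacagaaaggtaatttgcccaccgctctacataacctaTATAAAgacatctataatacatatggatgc
Slc9a3: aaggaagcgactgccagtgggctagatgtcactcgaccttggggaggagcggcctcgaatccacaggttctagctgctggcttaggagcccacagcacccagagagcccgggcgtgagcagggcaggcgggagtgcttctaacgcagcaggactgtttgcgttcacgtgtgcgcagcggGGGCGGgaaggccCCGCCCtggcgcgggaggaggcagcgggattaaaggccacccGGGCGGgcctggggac

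Slc26a3 held 1 TATAAA, 30 to 25 bases before the start, and no GGGCGG, in a window of 38.8% GC. Slc9a3 held 3 GGGCGG and no TATAAA, in a window of 67.6% GC. Of 32851 such windows of the mouse genome 12.4% held TATAAA and 32.7% held GGGCGG, and the median GC content was 52.4%. The steroid receptor motif AGAACA (in 16.1% of all windows), GCAATAAA, a match to the intestinal factor Cdx2 (0.871%), and CAAAGTCCA, a match to Hnf4a (0.384%), were found in none of the 7 windows. Only these exact letters were searched, so variants of a motif were not counted. A match or its absence describes the letters of these windows.

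Aqp4 and Aqp8, the 2 water channels among the members, were both lower in the NASH colon than in control and both higher in the EV libraries than in NASH, with different order of the doses. Aqp4, a water channel of basolateral membranes, was at 78.0 FPKM in control, 30.7 in NASH, 40.8 in the low-dose and 57.6 in the high-dose library (gene ID 11829, chromosome 18, 15389394 to 15410982). Aqp8, a channel for water and small solutes in surface colonocytes, was at 243 FPKM in control, 139.8 in NASH, 333 in the low-dose and 196 in the high-dose library (gene ID 11833, chromosome 7, 123462294 to 123468003). NASH was lowest for both genes, and control was highest for Aqp4 and the low dose for Aqp8.

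Against control, Aqp4 stood at -1.32 in NASH, the lowest ratio of the 10 members and 1 of 300 genes (1.97% of all) lower by 2-fold or more. Aqp8 stood at -0.79. The low-dose library against NASH gave 1.25 for Aqp8, the single member higher by 2-fold there, where 0.905% of all genes were, and 0.40 for Aqp4. The high-dose library against NASH gave 0.88 for Aqp4 and 0.48 for Aqp8. Relative to the epithelial markers Aqp8 was at 0.87 in the low-dose library, under 2-fold, and Aqp4 at 0.02. Against control rather than NASH, Aqp4 remained lower, at -0.92 with the low and -0.43 with the high dose, and Aqp8 was at 0.45 and -0.31. The FPKM of Aqp8 was 3.12 times that of Aqp4 in control, 4.55 times in NASH, 8.16 times with the low dose and 3.40 times with the high dose.

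The genes with the most similar profile to Aqp4 over the 4 libraries, among 9389 at 5 FPKM or more, were the glutathione transferase Gstm3 and Grem1, a secreted antagonist of bone morphogenetic proteins, each at a distance of 0.10, and Trmt61b at 0.12. Gstm3 was at 13.4 FPKM in control, 4.76 in NASH, 6.96 in the low-dose and 8.22 in the high-dose library. For Aqp8 they were Gm1123 at a distance of 0.09, Dynlt1f at 0.10 and Tmem141 at 0.10. Profiles of 4 libraries are short, and a close profile is a description of these libraries.

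Car1 and Car4 separated. Car1 (gene ID 12346, chromosome 3, 14766214 to 14808365), cytosolic in colonocytes, was at 884 FPKM in control, 1169 in NASH, 1404 in the low-dose and 766 in the high-dose library. Car4 (gene ID 12351, chromosome 11, 84957754 to 84966054), anchored to the apical membrane, was at 143, 154, 146 and 183 FPKM. The low dose was highest for Car1, where the high dose was lowest, and the high dose was highest for Car4. Relative to the epithelial markers the low-dose ratio of Car1 to NASH turned from 0.26 to -0.11, so that the low dose was no longer highest. The log2 ratio of high to low dose was -0.87 for Car1, the lowest of the 10 members in that comparison, where 0.918% of all genes were as low or lower, and 0.32 for Car4. Car1 was 6.18 times Car4 in control, 7.57 times in NASH, 9.62 times with the low dose and 4.19 times with the high dose.

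Scnn1b and Scnn1g encode the beta and gamma subunits of ENaC, and they were highest in the NASH library. They lie as neighbours on chromosome 7, Scnn1g at 121734420 to 121768482 (gene ID 20278) and Scnn1b at 121865038 to 121918728 (gene ID 20277), with 96555 bases between them. Scnn1g was at 1.55 FPKM in control, 4.13 in NASH, 2.11 in the low-dose and 1.34 in the high-dose library. Scnn1b was at 2.80, 4.66, 3.22 and 3.20 FPKM. NASH was above the other 3 libraries for both subunits, and the other 3 lay within 0.41 log2 units of each other for Scnn1g and 0.15 for Scnn1b.

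The promoter bases of the neighbouring subunits are shown because both genes were highest in NASH, with GGGCGG on either strand in capitals, at chr7:121734229-121734419 for Scnn1g, ended before the first base of the annotated gene, and chr7:121864788-121865037 for Scnn1b, both on the plus strand.
Scnn1g: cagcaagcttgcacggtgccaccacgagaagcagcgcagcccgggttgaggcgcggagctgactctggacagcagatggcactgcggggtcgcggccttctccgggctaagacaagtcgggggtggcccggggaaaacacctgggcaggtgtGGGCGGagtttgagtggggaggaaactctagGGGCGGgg
Scnn1b: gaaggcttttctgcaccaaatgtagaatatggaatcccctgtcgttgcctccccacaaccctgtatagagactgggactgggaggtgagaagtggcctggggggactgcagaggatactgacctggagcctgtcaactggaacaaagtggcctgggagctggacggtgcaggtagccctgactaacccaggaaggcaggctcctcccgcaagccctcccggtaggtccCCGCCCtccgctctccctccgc

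All 250 bases before the listed start were searched for both genes, of which the first 191 are printed for Scnn1g. Scnn1g held 2 GGGCGG and Scnn1b held 1, and TATAAA was in neither window. Against control, Scnn1g stood at 1.0 in NASH, at the limit of 2-fold, where 2.43% of all genes were higher by 2-fold or more, and Scnn1b at 0.57. As FPKM without the added 1, Scnn1g was 2.65 times control. Against NASH, Scnn1g stood at -0.72 with the low dose and -1.13 with the high dose, the single member lower by 2-fold there, where 1.43% of all genes were, and Scnn1b at -0.42 and -0.43. With a pseudocount of 5 FPKM the NASH ratio of Scnn1g was 0.48 and the high-dose ratio -0.53, so both calls rest on a gene at low FPKM. After median-of-ratios scaling the NASH ratio was 0.97, and relative to the epithelial markers 0.94.

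Scnn1a, the alpha subunit that the channel needs to conduct, did not share this order, with 8.70 FPKM in control, 8.86 in NASH, 6.97 in the low-dose and 11.1 in the high-dose library. The ratio of Scnn1b to Scnn1g in FPKM was 1.80, 1.13, 1.52 and 2.39. The genes with the most similar profile to Scnn1g were the apolipoprotein Apoc1 at a distance of 0.07, Gpd1, a glycerol phosphate dehydrogenase abundant in fat, at 0.09, and the iron transporter Slc11a2 at 0.10. Gpd1 was at 6.60 FPKM in control, 14.8 in NASH, 7.67 in the low-dose and 6.72 in the high-dose library. Unlike Scnn1g, Gpd1 was slightly lower in control than in the high-dose library. Scnn1g shared its order of libraries with the summed adipocyte markers. These were 3.70, 1.83 and 0.576 times control in NASH, low dose and high dose. Scnn1g shared its high NASH value with the anterior Hox genes Hoxb3 to Hoxb7 and with the seminal vesicle and prostate genes. The part of any of these in the ENaC values was not tested.

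Atp12a, the catalytic subunit of the colonic proton-potassium pump (gene ID 192113, chromosome 14, 56364669 to 56388551), was lower in control than in the other 3 libraries. It was at 29.4 FPKM in control, 55.6 in NASH, 60.8 in the low-dose and 53.1 in the high-dose library. The ratios to control were 0.90 for NASH, 1.02 for the low dose, where 1.15% of all genes were higher by 2-fold or more, and 0.83 for the high dose. Against NASH the doses stood at 0.13 and -0.07, and the first turned to -0.25 relative to the epithelial markers. Of 9389 genes 17 lay within 0.1 log2 units of its profile, led by the small nucleolar RNA Snora31, the kynurenine aminotransferase Kyat1 and Gm8909.

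Cftr, the chloride channel of secretion (gene ID 12638, chromosome 6, 18170687 to 18322770), varied least of the 10 genes. It was at 29.5 FPKM in control, 26.4 in NASH, 27.4 in the low-dose and 30.9 in the high-dose library, a highest over lowest of 1.17. Its ratios were -0.16 for NASH against control, 0.05 for the low and 0.22 for the high dose against NASH, the low-dose value turning to -0.32 relative to the epithelial markers. Cftr overlaps the pseudogene Gm15595, listed between 1.98 and 2.89 FPKM.

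**Figure D3:**
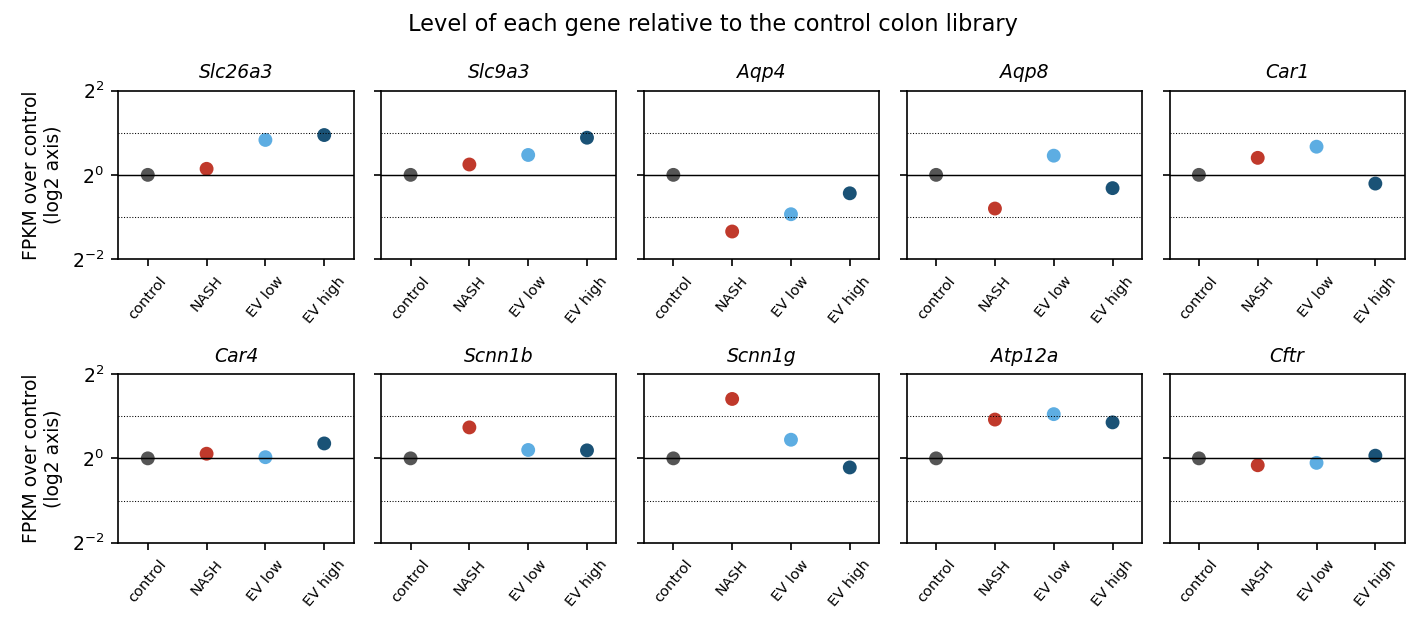
FPKM of each gene over that of the control colon library (log2 axis), 1 point per library, with dotted lines at 2-fold. Slc26a3 and Slc9a3 are highest with the high dose, Aqp4 and Aqp8 lowest in NASH, Scnn1b and Scnn1g highest in NASH, Atp12a between 1.81 and 2.07 times control in the 3 other libraries, and Cftr near 1.

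Counted over the 10 genes, NASH against control had 1 member higher and 1 lower by 2-fold, with a median log2 ratio of 0.19 for the members and 0.06 for all genes, where 4.40% of all genes were apart in either direction. The low dose against NASH had 1 higher and 0 lower, where 1.95% of all genes were lower and 2.85% apart in either direction, with medians of 0.17 and -0.06. The high dose against NASH had 0 higher, where 1.10% of all genes were, and 1 lower, where 2.53% were apart in either direction, with medians of 0.23 and 0.02. The high against the low dose had all 10 within 2-fold, where 1.55% of all genes were apart in either direction, with medians of 0.05 and 0.08. Against control, the low dose had Atp12a higher and 0 lower, where 1.74% of all genes were lower, and the high dose had 0 in either direction, where 1.33% were higher, 1.27% lower and 2.60% either. Each of these counts is 0 or 1 of 10. The comparisons with NASH share the NASH library, so a high or low value in that library enters all 3. For Aqp4, for example, the values were -1.32, 0.40 and 0.88, and for Scnn1g they were 1.0, -0.72 and -1.13.

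Around these members, 65 of 66 other genes of colonic transport in 9 lists were found in the table, and 49 were kept at 1 FPKM. NASH against control had 3 of the 49 higher by 2-fold and 0 lower, where 2.43% of all genes were higher and 1.97% lower (median 0.21, all genes 0.06). The low dose against NASH had 0 higher and 1 lower, where 0.905% and 1.95% of all genes were (median 0.05, all genes -0.06). The high dose against NASH also had 0 higher and 1 lower, where 1.10% and 1.43% of all genes were (median 0.07, all genes 0.02). The high against the low dose had all 49 within 2-fold, where 1.55% of all genes were apart (median 0.05, all genes 0.08).

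Among the partners of salt uptake, Slc9a2, a further sodium-proton exchanger of the apical membrane, followed the order of Slc9a3, with 48.9, 63.5, 78.8 and 80.9 FPKM in control, NASH, low dose and high dose. Slc26a2, a sulfate transporter, was at 88.2, 97.4, 106.6 and 117 FPKM. Both stayed within 2-fold in each of the 4 comparisons. The summed epithelial markers were also higher in both EV libraries than in NASH, but the single markers were not uniform. Against NASH they ranged from -0.46 (Elf3) to 0.66 (Krt18) with the low dose and from -0.34 (Elf3) to 0.37 (Krt18) with the high dose. Cdh1 was also below NASH with the low dose, at -0.44.

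ENaC partners and genes of the aldosterone response had 1 of 10 higher in NASH than in control, where 2.43% of all genes were, with a median of 0.30 against 0.06 for all genes. This was Usp2, a deubiquitinase under control of the circadian clock, at 1.70 FPKM in control, 6.91 in NASH, 4.90 in the low-dose and 5.11 in the high-dose library (log2 1.55). Nr3c2, the mineralocorticoid receptor, was at 30.8, 39.5, 36.5 and 41.9 FPKM. Sgk1, an aldosterone-induced kinase, was at 50.4, 71.9, 68.7 and 69.5 FPKM, below 2-fold. Tsc22d3, a glucocorticoid-induced gene, was at 23.4, 34.6, 51.5 and 34.5 FPKM, at 1.11 with the low dose against control.

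In the guanylin pathway, which restrains sodium uptake and drives secretion through cyclic GMP, 1 of 4 genes was higher by 2-fold in NASH than in control, where 2.43% of all genes were, and the list median of 0.09 was near the 0.06 of all genes. Prkg2, the cyclic GMP-dependent kinase of type II, was at 2.70 FPKM in control, 16.2 in NASH, 8.82 in the low-dose and 6.18 in the high-dose library, with ratios of 2.22 for NASH against control and -1.26 for the high dose against NASH. Its order of libraries for NASH and both doses was that of Scnn1g, and the share of all genes with that order was not counted. The peptide guanylin, Guca2a, was at 1397, 1392, 2409 and 1713 FPKM, highest with the low dose as Aqp8 was. Its receptor Gucy2c lay between 59.2 and 70.0 FPKM.

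Secretory partners of Cftr stayed within 2-fold in all 4 comparisons in 9 of 9 kept genes, as did most genes, of which 4.40%, 2.85%, 2.53% and 1.55% were apart. Slc12a2, the basolateral chloride loader, was at 55.7, 66.6, 50.8 and 66.3 FPKM, and Clcn2, a chloride channel, at 32.9, 46.6, 53.7 and 61.1 FPKM. Among other carbonic anhydrases Car2, a cytosolic isoform, was at 372, 329, 567 and 409 FPKM, and Car8, which lacks enzyme activity, at 7.01, 14.6, 15.1 and 10.2 FPKM, reaching 2-fold with the low dose against control (1.01). Of 7 other water channels 2 were kept, Aqp1 at 25.1, 39.3, 34.2 and 32.4 FPKM and Aqp11 between 4.71 and 6.67. Atp4a and Atp4b, subunits of the gastric proton pump, were at 0.0811 FPKM or less. The transporters of short-chain fatty acids Slc5a8 (66.8, 45.7, 50.5 and 51.9 FPKM) and Slc16a1 (90.3, 50.1, 70.1 and 67.5 FPKM) were lowest in NASH, below 2-fold. Of the other kept genes of that list, Bsg was also lowest in NASH (312, 253, 349 and 294 FPKM). Slc16a3 was lowest in control (1.87, 2.23, 3.67 and 2.37 FPKM).

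**Figure D4:**
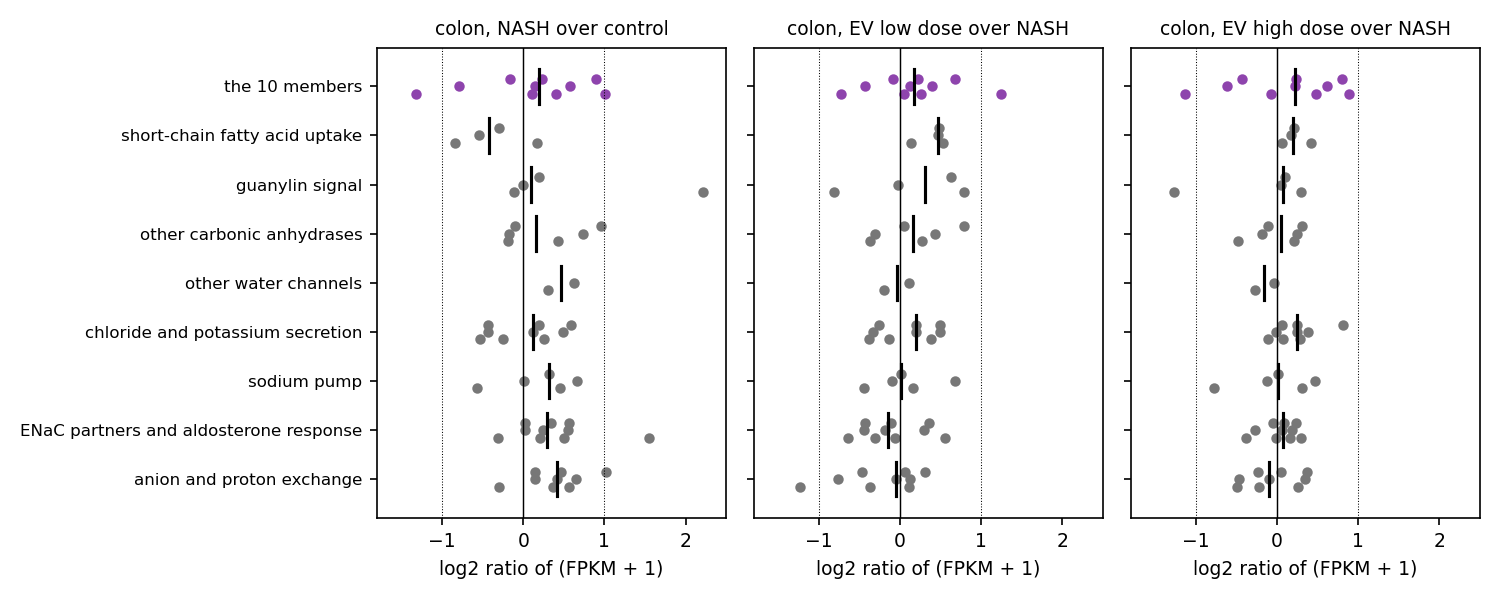
Log2 ratios of (FPKM + 1) for kept genes of 8 transport lists and for the 10 members in 3 colon comparisons, 1 point per gene, with black bars at the median and dotted lines at 2-fold. Prkg2 (2.22) and Usp2 (1.55) lie furthest right in NASH over control, and Aqp4 (-1.32) furthest left.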

How the data were processed

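RNA of mouse colon and liver was sequenced in 8 libraries, 1 per group and tissue. Per the labels' protocols, TRIzol and a column kit (RNeasy Plus) gave the total RNA, and a stranded total RNA kit gave the libraries. Per the submitters' processing notes, Trimmomatic 0.38, HISAT2 and StringTie were used with mm10. Their role and order, read counts and depth are given by none of the sources used here. Values are FPKM deposited by the authors, in 1 table keyed by NCBI gene ID. Of 45777 IDs, 45679 matched a symbol of GRCm38.p6.

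Groups came from the sample titles. Ratios were differences of log2(FPKM + 1), which understates ratios of genes at low FPKM. A gene was kept at 1 FPKM in at least 1 colon library, leaving 15245. No test was run, since each group has 1 library. The members, lists, motifs and the rule for named genes were chosen with earlier results of these data known, and the TATA and GC boxes after the first motifs had been searched. All members were named, with transport genes 2-fold apart in any comparison at 5 FPKM or more, up to 3 per list, and the 3 nearest profiles of members spanning 2-fold. Further genes, such as Scnn1a, Slc9a2, Sgk1, Tsc22d3, Car8, Guca2a, Clcn2, Hoxb6, Slc51a and Cyp2c55, were named after their values were seen. Alternatives were pseudocounts of 0.1 and 5 FPKM, median-of-ratios scaling, scaling to the same sum, ratios relative to 10 epithelial markers, no filter, a filter at 5 FPKM and control as baseline. Scaling to the summed FPKM of protein-coding genes was added after the data were seen. Some genes counted in the transport lists are not reported here by name. The code was tested on simulated data. Python 3.11.15, numpy 2.4.6, pandas 2.3.3 and matplotlib 3.10.9 were used.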

Additional observations from a re-analysis of the deposited data

Results flagged for a closer look

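Aqp4 lay in opposite directions in the tissues. The ratio of NASH to control was -1.32 in colon and 1.73 in liver, each of 2 libraries, and the difference between the tissues was not tested. In the liver libraries, which no comparison above used, Aqp4 was at 0.557 FPKM in control, 4.16 in NASH, 7.65 in the low-dose and 5.52 in the high-dose library, so the 3 NASH-model libraries were above the liver control. The level in colon was between 30.7 and 78.0 FPKM.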

How the results depend on the processing

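Of 102 values of counts and medians under the alternatives, 88 kept their size or direction. The 88 include the values with no filter, which are the same by construction because every member passes the filter. They also include medians that kept only their direction. The median of the low dose against NASH, for example, was 0.17 as deposited and 0.02 after scaling to the same sum. The count of members higher in NASH than in control was 0 with a pseudocount of 5 FPKM, median-of-ratios scaling, ratios relative to the epithelial markers or a filter at 5 FPKM, and 2 after equalising the summed FPKM, or that of protein-coding genes, between libraries, where Atp12a passed 2-fold at 1.02 and 1.01. For the low dose against NASH, ratios relative to the epithelial markers gave 0 higher, 1 lower (Scnn1g, -1.10) and a median of -0.21, and scaling to protein-coding genes a median of -0.025. The count lower with the high dose was 0 with a pseudocount of 5 FPKM, a filter at 5 FPKM (which removes Scnn1b and Scnn1g) or control as baseline. The median of high against low dose was -0.019 after median-of-ratios scaling. The causes were not tested beyond what each setting changes by its construction. Of 332 ratios of single members, 300 kept their side of 2-fold and their direction, and no call turned to the other direction. The 300 include the ratios with no filter and with a filter at 5 FPKM, which are the same by construction because a filter does not enter a gene's own ratio.

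The median of all genes for the low dose against NASH was -0.06 as deposited, -0.44 relative to the epithelial markers, -0.18 after scaling to the same sum and -0.22 after scaling to protein-coding genes. Of the genes 2-fold apart, the share higher was 55.3% in NASH against control (66.1% after same-sum scaling, 48.2% relative to the epithelial markers and 45.9% with a pseudocount of 5 FPKM), 31.7% with the low dose (5.66% relative to the epithelial markers), 43.4% with the high dose (27.0%) and 56.1% for high against low dose (77.1%). No paired analysis was possible because each group has 1 library, and no replicate could be left out.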

Other observations

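In liver, 7 of the 10 genes were under 1 FPKM in every library and 4 of them, Slc9a3, Car4, Scnn1g and Atp12a, were listed at 0 in all 4. Aqp8, which hepatocytes also express, was at 142 FPKM in the control liver, 73.2 in NASH, 66.4 with the low dose and 66.6 with the high dose. Car1, an enzyme that red blood cells also hold, was at 3.57 FPKM in the control liver and at 0.219, 0.600 and 0.913 in the same order.

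Of 12 surface colonocyte markers, 3 were higher by 2-fold in NASH than in control, where 2.43% of all genes were, 1 was lower and 8 were within. The most distant in each direction, chosen after their values were seen, were Slc51a and Cyp2c55. Slc51a, a subunit of the basolateral bile acid exporter, was at 2.11 FPKM in the control colon, 36.9 in NASH, 23.8 with the low dose and 7.88 with the high dose. Cyp2c55 was at 579, 120.4, 328 and 161 FPKM. Slc51b, the partner subunit of Slc51a, had another order, with 15.2, 33.4, 43.2 and 24.8 FPKM. The order of Slc51a over the 3 NASH-model libraries was that of Scnn1g and Prkg2, and the order of Cyp2c55 over them was that of Aqp8. Only a few orders of 3 libraries are possible, and the share of all genes with each order was not counted. A shared order is thus a description of these libraries and does not group the genes.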
